A study of Mus musculus with 4 samples.

Results

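The genes that mark resting, or homeostatic, microglia were followed in single nuclei from cerebral cortex, taken from Gclc-KO mice. The group held 10 genes, P2ry12, Tmem119, Cx3cr1, Siglech, Selplg, Sall1, Bank1, Crybb1, Slc2a5 and Ecscr, of the 32285 gene identifiers counted, and all 10 were found by their symbols. They were taken by name, as labels of the homeostatic state, with no value of theirs in the rule. Earlier results of these data were known when they were chosen. Gclc-KO mice carry a floxed Gclc allele and a CaMKII-Cre transgene, so that the catalytic subunit of the enzyme that starts glutathione synthesis is deleted in neurons. The floxed line is of C57BL/6NTac origin. Tissue came from cortical areas rich in rod-shaped microglia, the elongated form that is the subject of the study, and no treatment was given. There were 4 libraries, each from a mouse of its own. The mice named 3M-1 and 3M-2 were 3 months old, and those named 6M-1 and 6M-2 were 6 months old. Values by mouse are given in that order throughout. The number after the hyphen is also used as the batch number, so each batch number holds a mouse of either age. The sample titles give it as a replicate number only. They do not say whether same-numbered mice of the ages were handled together. All groups carried the deletion, and no wild-type library was analysed here, so none of the values below compares Gclc-KO with normal tissue.

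Homeostatic microglia survey the brain with fine moving processes, and the genes followed here serve that state or are used as its labels. P2ry12 encodes a receptor for ADP that steers processes towards injury, and Cx3cr1 encodes the receptor for fractalkine, a chemokine shown by neurons. Siglech encodes a sialic acid binding lectin, Selplg the selectin ligand PSGL-1 and Tmem119 a membrane protein that sets microglia apart from other macrophages. Sall1 encodes a zinc finger transcription factor that maintains microglial identity. Bank1 encodes an adaptor of B-cell receptor signalling, Crybb1 a beta-crystallin first described in the lens, Slc2a5 the fructose transporter GLUT5 and Ecscr a membrane protein first described in endothelial cells. TGF-beta signalling through SMAD proteins, and the factors PU.1 and MAF, are known to sustain the homeostatic state. When microglia take on the disease-associated (DAM) state around damage, homeostatic genes are typically turned down while genes of lipid handling, phagocytosis and lysosomes are turned up.

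Microglia were taken by 20 marker genes that include none of the 10. A nucleus was kept as a microglial nucleus with 6 or more of the 20 detected and too few markers of any other cell type. This gave 2047 microglial nuclei of the 30515 that passed the filters, with 457, 356, 689 and 545 by mouse. Median depth per microglial nucleus ran from 1470 to 2225 UMIs (unique molecular identifiers, each standing for 1 captured RNA molecule). Libraries held 59262228 to 65894316 UMIs in the nuclei kept, and pairs of libraries shared 12 to 19 cell barcodes. Microglia were then divided by 7 genes of the DAM program, Lpl, Lilrb4a, Igf1, Ccl3, Ccl4, Csf1 and Myo1e. Nuclei with 3 or more of the 7 detected are called program-positive here, and those with 0 or 1 low-program. There were 54, 30, 75 and 58 program-positive and 360, 303, 518 and 432 low-program nuclei by mouse. Gclc itself was read at 33.5 to 42.6 CPM (counts per 1000000 UMIs of a class) in excitatory neurons, which checks nothing, since counting from the 3′ end can also see a transcript that lacks an inner part and no wild type was at hand. All values are of nuclear RNA, and all p-values cover these mice only. Where classes of the same mouse are compared, the p-values rest on how the class difference varied over the mice. Where ages are compared, they rest on the spread between mice of an age.

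On the mouse assembly mm10 (GRCm38, GENCODE M21 gene models) the genes lie apart from each other except on chromosome 5. P2ry12 (ENSMUSG00000036353) is at chr3:59216272-59262871 on the minus strand and lies inside Med12l, a gene of the opposite strand. Bank1 (ENSMUSG00000037922) spans chr3:136053363-136326066 on the minus strand, with the antisense transcript Gm31243 inside it. Slc2a5 (ENSMUSG00000028976) is at chr4:150119283-150144169 on the plus strand. Crybb1 (ENSMUSG00000029343, chr5:112255815-112269585, plus strand), Tmem119 (ENSMUSG00000054675, chr5:113793729-113800516, minus strand) and Selplg (ENSMUSG00000048163, chr5:113818536-113832644, minus strand) share chromosome 5, the latter pair as close neighbours. Siglech (ENSMUSG00000051504) is at chr7:55768178-55778925 on the plus strand, and Sall1 (ENSMUSG00000031665) at chr8:89027235-89044162 on the minus strand. Cx3cr1 (ENSMUSG00000052336) has a long gene model, chr9:119901616-120069879 on the minus strand, that overlaps 9 other counted genes. Ecscr (ENSMUSG00000073599) overlaps 1700066B19Rik of the opposite strand. How strand was used in the counting is not given in the sources used here, so reads of overlapping genes cannot be told apart with certainty.

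Because the 10 genes were lower together in the first comparison below, the 250 bases before the RefSeq start sites (GRCm38.p6) were searched for short motifs of the factors named above. RefSeq windows were matched for 7 of the 10 genes. The SMAD box CAGAC, on either strand, was present in 6 of these 7 genes, with Bank1 the exception. By window it was in 6 of 9, since Sall1 has several start sites of which 1 had the box, against 42.2% of all 32851 promoter windows of that length. Slc2a5 held 4 copies and Siglech 2. The PU.1 core GAGGAA was in 0 of the 9 windows, against 23.3% of all windows, and the half-site of MAF, TGCTGA, was in 1 of the 9, that of Crybb1, against 16.1% of all windows. In Crybb1 the SMAD box and the MAF letters did not overlap. Such matches are letters in a window and not sites of binding. The windows shown are those of the ADP receptor gene with 1 box, of Siglech with 2 boxes, of Crybb1 with both motifs and of Bank1 with none, with the SMAD box (CAGAC, which reads GTCTG where it lies on the other strand) in capitals.
P2ry12, chr3:59262986-59263235, minus strand: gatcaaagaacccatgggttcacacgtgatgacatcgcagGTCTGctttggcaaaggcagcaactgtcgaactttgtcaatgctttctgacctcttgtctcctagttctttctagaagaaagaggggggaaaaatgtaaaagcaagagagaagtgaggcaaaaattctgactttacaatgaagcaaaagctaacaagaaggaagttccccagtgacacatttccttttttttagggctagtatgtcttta
Siglech, chr7:55767934-55768183, plus strand: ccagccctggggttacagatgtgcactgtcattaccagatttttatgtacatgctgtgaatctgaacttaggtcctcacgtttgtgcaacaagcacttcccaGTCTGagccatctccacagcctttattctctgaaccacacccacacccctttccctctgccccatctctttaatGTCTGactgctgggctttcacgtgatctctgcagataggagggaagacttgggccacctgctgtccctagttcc
Crybb1, chr5:112255570-112255819, plus strand: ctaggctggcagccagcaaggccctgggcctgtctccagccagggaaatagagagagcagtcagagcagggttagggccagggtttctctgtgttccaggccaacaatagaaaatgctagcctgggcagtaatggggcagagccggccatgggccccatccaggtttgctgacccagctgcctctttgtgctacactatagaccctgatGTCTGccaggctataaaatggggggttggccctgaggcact
Bank1, chr3:136326067-136326316, minus strand: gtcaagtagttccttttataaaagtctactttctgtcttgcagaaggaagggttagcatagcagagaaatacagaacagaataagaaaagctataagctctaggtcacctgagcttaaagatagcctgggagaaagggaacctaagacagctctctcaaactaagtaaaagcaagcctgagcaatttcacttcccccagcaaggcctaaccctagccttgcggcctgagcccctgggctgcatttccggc

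The first question was whether homeostatic genes were lower in the microglia that carried the DAM program, within the same mouse. The sum of the 10 genes was lower in program-positive than in low-program microglia in 4 of 4 mice. Together they held 1914 ± 277 CPM in the first class and 3911 ± 713 CPM in the second (mean ± SD, n = 4 mice). Their summed level was 2203, 2042, 1850 and 1560 CPM in program-positive microglia by mouse, and 4694, 4326, 3407 and 3215 CPM in low-program microglia. In edgeR's quasi-likelihood test with the mouse as a block, 10 of 10 genes passed an adjusted p of 0.05 in the lower direction, where 4.97% of the 6465 genes tested did so. For 8 of the 10, all 4 program-positive values lay under all 4 low-program values, where 6.76% of the tested genes did so. The median log2 fold change was -1.65 over the 10 and 0.01 over all genes tested. These 3 summaries are descriptions, since 5 of the genes (Tmem119, Bank1, Crybb1, Slc2a5 and Ecscr) reached the filter on low counts only through the low-program class. The other 5 reached it in either class. All 10 were also chosen with earlier results of these data known.

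**Figure D1:**
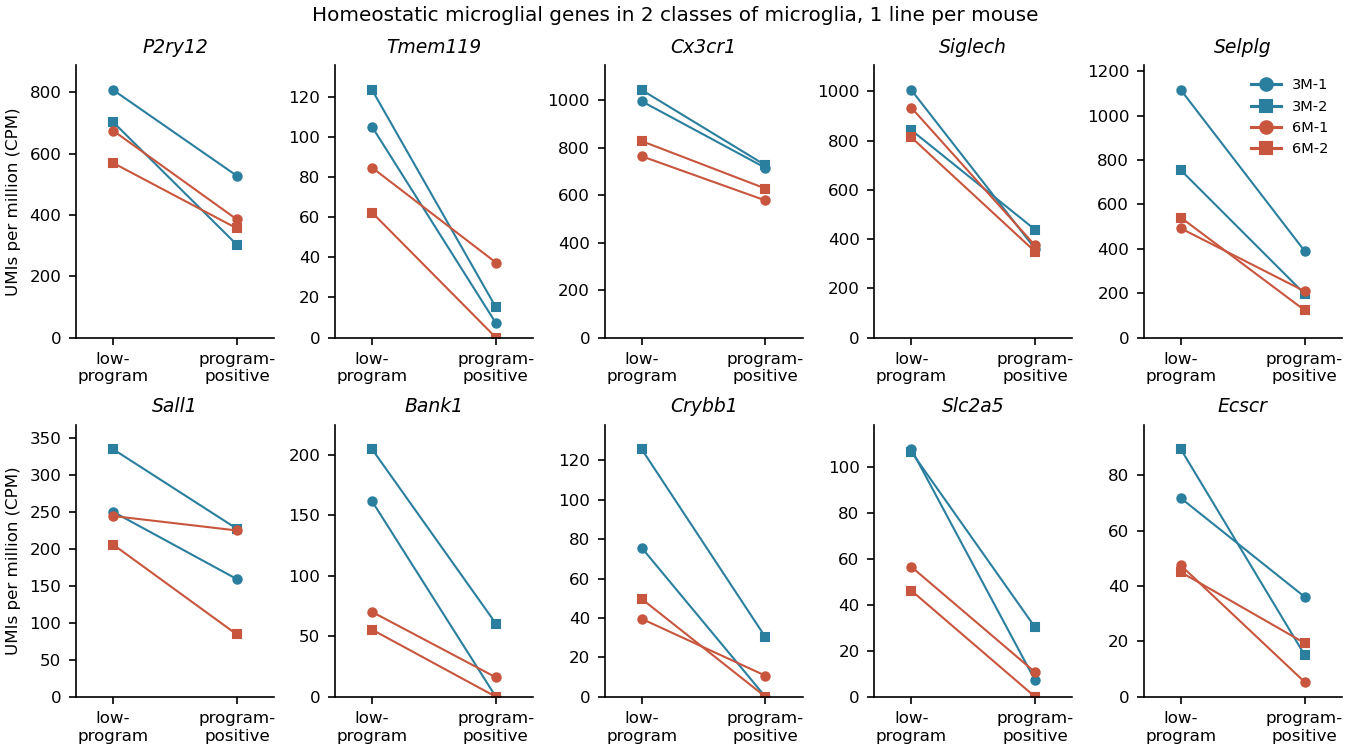
Each panel gives 1 gene, the y axis its level in CPM and the x axis the microglial class, with 1 line per mouse. Every line goes down from low-program to program-positive microglia, and the values of the classes overlap across mice only for Sall1 and Bank1. The program-positive points of Tmem119, Bank1, Crybb1, Slc2a5 and Ecscr rest on few UMIs. How many of all genes went down in every mouse was not counted.

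Of the surface receptors, P2ry12 read 807, 703, 675 and 569 CPM in low-program microglia by mouse and 527, 303, 385 and 356 CPM in program-positive microglia. The classes did not overlap, and the program-positive mean was 57.0% of the low-program mean. Its log2 fold change was -0.78 ± 0.13 (SE, edgeR adjusted p = 0.000109). Med12l, the gene around P2ry12, also had a lower mean in the program-positive class (333 against 505 CPM, edgeR adjusted p = 0.00356), and what it adds to the P2ry12 value was not tested. Cx3cr1 changed least. It read 996, 1043, 764 and 828 CPM in low-program and 715, 726, 578 and 628 CPM in program-positive microglia, in the same order of mice. The classes again stood apart, with a log2 fold change of -0.45 ± 0.11 (SE, edgeR adjusted p = 0.00723). The call for Cx3cr1 was lost in 4 of 15 alternatives, the highest adjusted p being 0.0751 in edgeR without the mouse block.

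Siglech and Selplg gave the firmest calls. Siglech read 1006, 843, 935 and 814 CPM in low-program microglia against 361, 439, 374 and 349 CPM in program-positive microglia. Its level was thus 42.7% of that in the low-program class in the mean, with a log2 fold change of -1.27 ± 0.13 (SE, edgeR adjusted p = 6.55e-08). The program-positive values of the 4 mice lay close together, whatever the age. Selplg read 1115, 754, 492 and 540 CPM in low-program microglia and 390, 197, 209 and 123 CPM in program-positive microglia. The mouse 3M-1 was the highest in each class, and the log2 fold change was -1.63 ± 0.15 (SE, edgeR adjusted p = 2.00e-08). The call for each of these genes held in all 15 alternatives, as it did for P2ry12.

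Sall1, the transcription factor of the group, had the weakest call. It read 250, 334, 244 and 206 CPM in low-program microglia and 159, 227, 225 and 84.1 CPM in program-positive microglia. In 6M-1 the classes were nearly level, and over the mice they overlapped. The log2 fold change was -0.58 ± 0.19 (SE, edgeR adjusted p = 0.0416). This call was lost in 6 of 15 alternatives, among them without 3M-1 (adjusted p = 0.164), without 3M-2 (0.0890) and without 6M-2 (0.248) in edgeR, and in DESeq2 (0.190).

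The 5 remaining genes had 10 UMIs or fewer each in program-positive nuclei. Tmem119 had 9 UMIs there in all (1, 1, 7 and 0 by mouse) against 269 in low-program nuclei. Relative to all UMIs of its class this is a ratio of 0.184 (exact 95% interval 0.0832 to 0.354, counting error only), and the level in low-program microglia was 105, 123, 84.7 and 62.3 CPM in the same order. Its log2 fold change was -2.43 ± 0.43 (SE, edgeR adjusted p = 0.000215), and -3.98 without 6M-1, which held most of the program-positive UMIs. Bank1 had 7 UMIs against 332, with 0 in 3M-1 and 6M-2, a ratio of 0.116 (0.0462 to 0.241), and it read 161, 204, 70.1 and 55.4 CPM in low-program microglia. Its log2 fold change was -3.01 ± 0.45 (SE, edgeR adjusted p = 2.78e-05), and -2.33 without 3M-1 and -3.84 without 3M-2. The antisense transcript within it, Gm31243, had 11 UMIs against 272, with a log2 fold change of -2.09 ± 0.37 (SE, edgeR adjusted p = 0.000232). It too reached the filter on low counts only through the low-program class, so these values are a description. Reads of this overlapping pair cannot be told apart with certainty.

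Crybb1 had 4 UMIs in program-positive against 196 in low-program nuclei, a ratio of 0.112 (0.0303 to 0.292). Its low-program level was 75.6, 126, 39.5 and 49.6 CPM by mouse, and its log2 fold change was -3.04 ± 0.54 (SE, edgeR adjusted p = 0.000262), and -3.69 without 6M-1. Slc2a5 had 5 UMIs against 224, a ratio of 0.123 (0.0394 to 0.291). It read 108, 106, 56.5 and 46.2 CPM in low-program microglia, with a log2 fold change of -2.95 ± 0.48 (SE, edgeR adjusted p = 6.87e-05). Ecscr had 10 UMIs against 179, a ratio of 0.307 (0.145 to 0.578). Its low-program values were 71.8, 89.4, 47.5 and 45.0 CPM, and its log2 fold change was -1.66 ± 0.42 (SE, edgeR adjusted p = 0.00763). The call for Ecscr was lost in DESeq2 (adjusted p = 0.0694) and in edgeR without 6M-1 (0.0590). With so few UMIs, and a filter passed only through the low-program class, these 5 ratios and fold changes are descriptions.

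Depth and RNA of other cells differed between the classes. Program-positive nuclei were deeper, with median UMIs of 2660, 2088, 2170 and 2512 against 2137.5, 1356, 1614 and 1931 by mouse. With microglia of 1500 to 4000 UMIs only, 7 of the 10 genes were tested and 6 passed, Sall1 being the one that did not (edgeR adjusted p = 0.0853). The 5 neuronal genes kept out of every gate summed to 1482 to 3501 CPM in program-positive and 2521 to 3568 CPM in low-program microglia, with 5 of 5 detected in each. The 6 oligodendrocyte genes kept out of the gates summed to 15.1 to 51.8 and 24.3 to 59.6 CPM, with Opalin and Anln at 0 in program-positive nuclei. Border macrophage markers summed to 0 to 7.22 CPM in program-positive and 6.93 to 20.5 CPM in low-program microglia, with F13a1, Cd163, Lyve1, Cd209f and Cbr2 at 0 in the former.

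The same was seen nucleus by nucleus. When each nucleus was thinned to 1000 UMIs, low-program microglia had on average 2.96, 2.98, 2.34 and 2.24 of the 10 genes detected by mouse, and program-positive microglia 1.5, 1.38, 1.44 and 1.14. The classes did not overlap. Before thinning the means were 3.13 to 4.36 and 1.98 to 2.63. In oligodendrocytes the thinned means were 0.0425 to 0.0604. UMIs of Sall1, Cx3cr1 and P2ry12 were read there, as shown further on, so these means are not a pure background. Nuclei with none of the 10 made up 2.59% to 8.24% of thinned low-program and 17.3% to 31.0% of thinned program-positive microglia. Thinning left out 123 low-program and 3 program-positive nuclei for having too few UMIs.

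**Figure D2:**
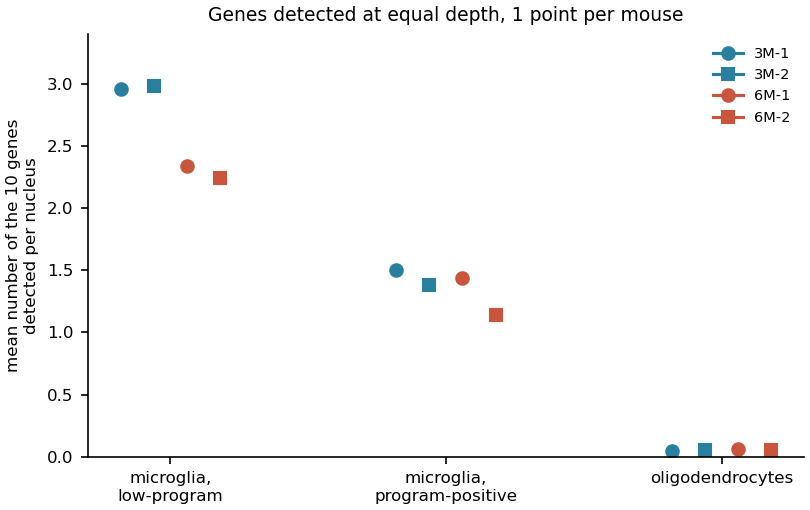
The y axis gives the mean number of the 10 genes detected per nucleus after thinning to 1000 UMIs, the x axis the class, and each point is 1 mouse. Low-program microglia lie between 2.24 and 2.98, program-positive microglia between 1.14 and 1.5 and oligodendrocytes at 0.0604 at most.

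The sum of the 10 genes decreased in steps with the program. Microglia with 0, 1, 2 and 3 or more program genes detected had mean summed levels of the 10 genes of 4123, 3406, 2687 and 1914 CPM, and the sum went down at every step in 4 of 4 mice. By gene, the mean over mice went down at every step for all but Cx3cr1 and Ecscr. By mouse the single genes were less regular. P2ry12, Siglech, Selplg and Crybb1 went down at every step in 3 of 4 mice, Tmem119 in 2, Cx3cr1, Bank1 and Ecscr in 1, and Sall1 and Slc2a5 in 0. How many of all genes went down at every step was not counted, so these counts are descriptions. In the mean over mice, Cx3cr1 was at 925, 866 and 886 CPM with 0, 1 and 2 program genes and at 662 CPM with 3 or more. The largest decrease of this mean lay in the last step. Siglech went from 956 over 768 and 487 to 381 CPM, and Bank1 from 139 over 86.1 and 23.8 to 19.1 CPM. Nuclei with more UMIs have more program genes detected, so the steps also differ in depth.

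**Figure D3:**
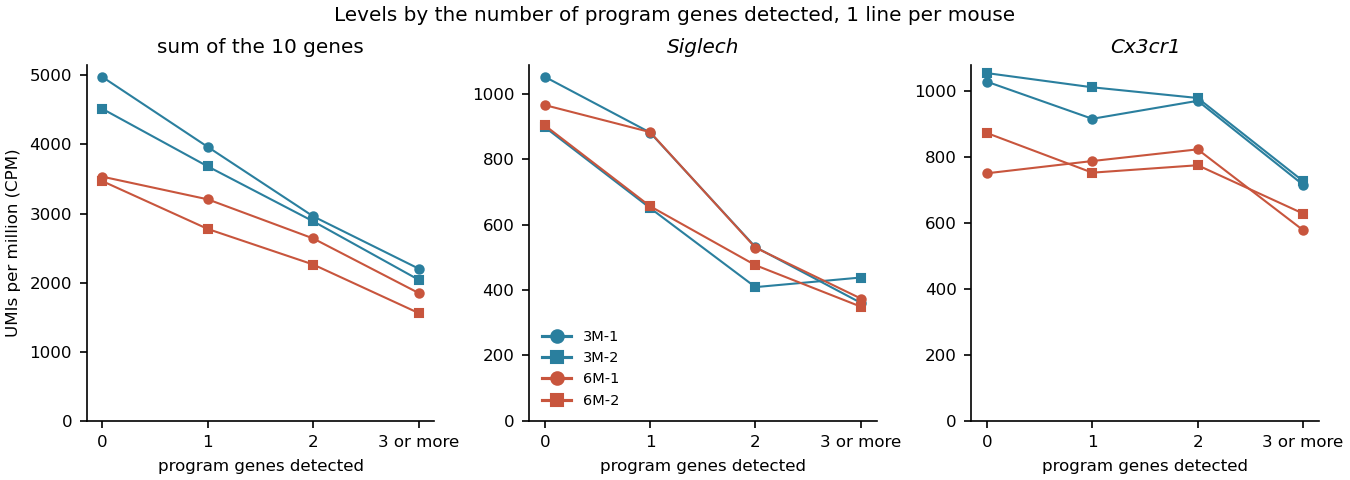
The x axis gives how many of the 7 program genes were detected, the y axis the level in CPM, for the sum of the 10 genes, Siglech and Cx3cr1, with 1 line per mouse. The sum goes down at each step in every mouse. Cx3cr1 goes down in every mouse at the last step, and before it the lines differ in direction between mice.

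Over the 16 sums that these steps and mice make, with each mouse centred, every member correlated with the mean of the other members, from r = 0.65 for Ecscr to r = 0.95 for Siglech. The sums share libraries and the split, so these are descriptions. Among 2205 other genes at 100 CPM or more, the 5 whose pattern was most like that of the 10 were Frmd4a (r = 0.96), Chd9 (0.95), Vsir (0.94), Dock4 (0.93) and Eef2k (0.93). Vsir encodes the immune checkpoint protein VISTA, Chd9 a chromatin remodeller, Dock4 an activator of Rac and Eef2k a kinase that slows translation elongation.

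Other lists put the 10 genes in context. They too were chosen with earlier results of these data known, so their counts are descriptions. Of 23 further homeostatic genes tested, 11 were lower in program-positive microglia and none higher, with a median log2 fold change of -0.60. Of all genes tested, 4.97% were lower. Among the clearest were Ltc4s, leukotriene C4 synthase, at -1.45 ± 0.19, Cst3, the protease inhibitor cystatin C, at -0.98 ± 0.13, and Sparc, a secreted matrix protein, at -1.11 ± 0.22 (log2 fold change ± SE, all past an edgeR adjusted p of 0.05). Of 11 microglial transcription factors tested, 2 were lower, among them Maf at -0.75 ± 0.15, none was higher, and the list's median was 0.16. Of 16 DAM genes outside the split, 14 were higher and 1 lower, with a median of 1.43, where 6.22% of the genes tested were higher. The Golgi kinase gene Fam20c was higher by 4.03 ± 0.26, Gpnmb, a glycoprotein of lysosome-rich phagocytes, by 5.22 ± 0.38, Apbb2, an adaptor that binds the amyloid precursor protein, by 1.69 ± 0.13 and Fgf13 by 1.57 ± 0.10. The gene of this list that was lower was the integrin gene Itgb5 at -0.55 ± 0.11. In low-program microglia Fam20c was at 8.52 to 17.3 CPM and Gpnmb at 0 to 6.93 CPM, under the filter's limit of 30.45 CPM. They reached the filter only through the program-positive class, so their fold changes are descriptions. The median over all genes tested was 0.01. The 7 program genes, which made the split, were all higher as they had to be, with a median log2 fold change of 4.50.

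The second question was whether the genes differed with age in low-program microglia, before and after neuron loss becomes prominent in these mice. These nuclei were not free of the program. Those with 1 program gene were 89 of 360 and 53 of 303 at 3 months, and 191 of 518 and 152 of 432 at 6 months. In low-program microglia the 10 genes summed to 4694 and 4326 CPM at 3 months and 3407 and 3215 CPM at 6 months, so that the 6-month mean was 73.4% of the 3-month mean. For 9 of the 10, Siglech being the exception, both 6-month values lay under both 3-month values, where 17.0% of the genes tested did so. Only Bank1 and Selplg passed the test, where 0.127% of the 10246 genes tested passed it in the lower direction. The median log2 fold change was -0.73 over the 10 and -0.00 over all genes tested. With only nuclei of 0 program genes, the median over the 10 was -0.63. There were 2 mice per age, so the p-values rest on the spread between few animals.

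Bank1 was at 183 ± 30.4 CPM at 3 months and 62.7 ± 10.4 CPM at 6 months in low-program microglia (mean ± SD, n = 2 mice each). Its log2 fold change was -1.55 ± 0.23 (SE, edgeR adjusted p = 0.00148), and -1.20 in batch 1 and -1.88 in batch 2 when each batch was read alone. The call held in 15 of 16 alternatives and was lost without the filter on low counts, where no gene was called (edgeR adjusted p = 0.338). Its antisense neighbour Gm31243 was lower as well, by a log2 fold change of -1.91 ± 0.25 (SE, edgeR adjusted p = 0.000435). Selplg went from 934 ± 255 to 516 ± 34.4 CPM (mean ± SD, n = 2 mice each), with a log2 fold change of -0.89 ± 0.20 (SE, edgeR adjusted p = 0.0487). This call was fragile. It was lost in 10 of 16 alternatives, among them without 6M-1 (adjusted p = 0.953) and without 6M-2 (0.456), and the estimate was -0.55 without 3M-1, the mouse with the highest Selplg.

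With the batch as a block, 4 of the 10 genes passed in the lower direction, as did 49 of the 10246 genes tested. The number of genes called in either direction rose from 44 to 131. With 4 sums in the fit, the block leaves few degrees of freedom for the error. The 4 genes were Bank1 (edgeR adjusted p = 3.47e-07), Selplg (0.00457), Crybb1 (0.00824) and Slc2a5 (0.0129). Slc2a5, the fructose transporter, went from 107 ± 0.83 to 51.3 ± 7.30 CPM and Crybb1 from 101 ± 35.4 to 44.6 ± 7.13 CPM (mean ± SD, n = 2 mice each). Without the block their adjusted p was 0.0613 and 0.0825 in edgeR. The values of Tmem119 were 114 ± 13.03 and 73.5 ± 15.9 CPM, of Ecscr 80.6 ± 12.5 and 46.2 ± 1.73 CPM, of P2ry12 755 ± 74.0 and 622 ± 74.6 CPM and of Cx3cr1 1019 ± 33.7 and 796 ± 45.1 CPM at 3 and 6 months. Sall1 was at 292 ± 59.7 and 225 ± 27.3 CPM and Siglech at 924 ± 115 and 874 ± 85.4 CPM. None of these 6 passed with or without the block, and their unblocked edgeR adjusted p ran from 0.318 to 0.948. Read within each batch, all 10 genes were lower at 6 months in both batches, as were 25.5% of the genes tested. For all but Siglech both 6-month values lay under both 3-month values, so any pairing of the mice would give this.

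Depth overlapped between the ages. Median UMIs of low-program nuclei were 2137.5 and 1356 at 3 months and 1614 and 1931 at 6 months, and in microglia of 1500 to 4000 UMIs the Bank1 value was -1.53 (edgeR adjusted p = 0.0145). Border macrophage markers, which go with Bank1 as shown further on, summed to 20.5 and 10.7 CPM at 3 months and 12.4 and 6.93 CPM at 6 months in low-program microglia, with Cd163, Lyve1 and Cd209f at 0, and their part in the result was not tested. With only microglia of 0 program genes the Bank1 value was -1.28 (edgeR adjusted p = 0.0160), and with those free of interferon genes -1.50 (0.0175). In the other lists no further homeostatic gene of 24, no transcription factor of 12 and no gate marker of 20 passed the age test in low-program microglia. Of the DAM genes outside the split, Apoe, the lipid carrier, was the 1 of 16 that passed, where 0.303% of the genes tested were higher. It was higher at 6 months by 2.64 ± 0.22 (log2 fold change ± SE, edgeR adjusted p = 5.84e-07). In program-positive microglia Apoe read 275 and 666 CPM at 3 months and 1962 and 1825 CPM at 6 months. It was also the 1 of 16 that passed the age test there, where 0.0264% of the genes tested passed in either direction. That call was lost in 1 of 13 alternatives. Igf1, a growth factor gene, read 3.84 and 4.26 CPM at 3 months and 28.25 and 31.2 CPM at 6 months in low-program microglia. It is 1 of the 7 genes that made the split, so these values are a description only. By them, low-program microglia of the ages were not equal in this gene.

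In program-positive microglia the 10 genes summed to 2203 and 2042 CPM at 3 months and 1850 and 1560 CPM at 6 months. The 5 neuronal genes kept out of the gates summed to 1979 and 1482 CPM at 3 months and 2829 and 3501 CPM at 6 months in the same nuclei, with 5 of 5 detected, and their part in the result was not tested. Only P2ry12, Cx3cr1, Siglech, Selplg and Sall1 reached the filter, and 0 of these 5 passed, where 0.0264% of the 3781 genes tested passed in either direction. The log2 fold changes were -0.86 ± 0.36 for Selplg, -0.21 ± 0.22 for Cx3cr1, -0.19 ± 0.27 for P2ry12, -0.16 ± 0.42 for Sall1 and -0.07 ± 0.25 for Siglech (± SE). Only Cx3cr1 had both 6-month values under both 3-month values, which 20.3% of the genes tested had. Between batches the sign changed for P2ry12, Sall1 and Siglech, so that 2 of the 5 were lower at 6 months in both batches, as were 30.5% of the genes tested. Whether the effect of the program differed between ages was tested as an interaction. No member passed, and 0.00% of 7720 genes did at the adjusted threshold, in edgeR as in DESeq2. At an unadjusted p under 0.05 there were 459 genes in edgeR and 96 in DESeq2. For Cx3cr1, the gene with the smallest error, the effect of the program differed by 0.13 ± 0.20 (log2, SE) between 6 and 3 months. For Tmem119, Bank1, Crybb1 and Slc2a5 the standard error of this difference was 1.19 to 1.72, so a difference of several fold was not detectable at this depth.

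The share of program-positive nuclei among microglia was 11.8%, 8.43%, 10.9% and 10.6% by mouse. The 95% Wilson intervals were 9.17% to 15.1%, 5.97% to 11.8%, 8.77% to 13.4% and 8.32% to 13.5%, counting error only. The mean was 0.642 points higher at 6 months, a difference within the spread of the 3-month mice (p = 1 in a two-sided exact permutation test, where 2 mice against 2 cannot go under 0.333). Without 3M-2 the difference was -1.05 points and without 3M-1 2.34 points.

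The third question was whether microglia with interferon-response genes also had lower homeostatic genes. Among low-program microglia, those with 2 or more of 16 interferon genes detected (31, 30, 99 and 51 nuclei by mouse) were set against those with none (262, 217, 293 and 283). These classes are drawn from the low-program nuclei used above. The 10 genes summed to 4025, 3234, 3224 and 2809 CPM in interferon-positive and 4849, 4347, 3501 and 3395 CPM in interferon-negative microglia. The sum was lower in each mouse, while the ranges overlapped. Interferon-positive nuclei were also deeper, with median UMIs of 2296, 1824, 1727 and 2056 against 2074, 1324, 1547 and 1881 by mouse. By gene, 7 of 10 were lower in 4 of 4 mice, where 9.67% of genes tested were. Bank1 was the 1 member that passed, where 0.310% of the 5479 genes tested passed in the lower and 2.21% in the higher direction. It had 22 UMIs against 248, a ratio of 0.398 (exact 95% interval 0.245 to 0.617), and a log2 fold change of -1.13 ± 0.31 (SE, edgeR adjusted p = 0.0344). The call was lost in 7 of 13 alternatives, among them leaving out any of the 4 mice (edgeR adjusted p = 0.413 without 3M-1, 0.0749 without 3M-2, 0.0708 without 6M-1 and 0.104 without 6M-2). Of the 10, 4 reached the filter only through the interferon-negative class, Bank1 among them.

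Siglech was at 845, 545, 890 and 643 CPM in interferon-positive and 1058, 869, 939 and 871 CPM in interferon-negative microglia. It was lower in every mouse by a log2 fold change of -0.33 ± 0.13 that did not pass (SE, edgeR adjusted p = 0.244). Sall1 had a log2 fold change of -0.00 ± 0.19 and Cx3cr1 of -0.11 ± 0.12. The median over the 10 was -0.33, against -0.01 over all genes tested. Of 21 other homeostatic genes tested, 3 were lower and none was higher, where 0.310% of the genes tested were lower. They were Ltc4s at -1.41 ± 0.23, Entpd1, an ectoenzyme that breaks down ATP, at -0.66 ± 0.15 and the Fc receptor-like gene Fcrls at -0.75 ± 0.19. The call for Entpd1 was lost in 5 of 13 alternatives, among them without 3M-1 (edgeR adjusted p = 0.0648) and without 3M-2 (0.0869), and that for Fcrls in 4, among them without 3M-2 (0.187) and without 6M-2 (0.119).

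**Figure D4:**
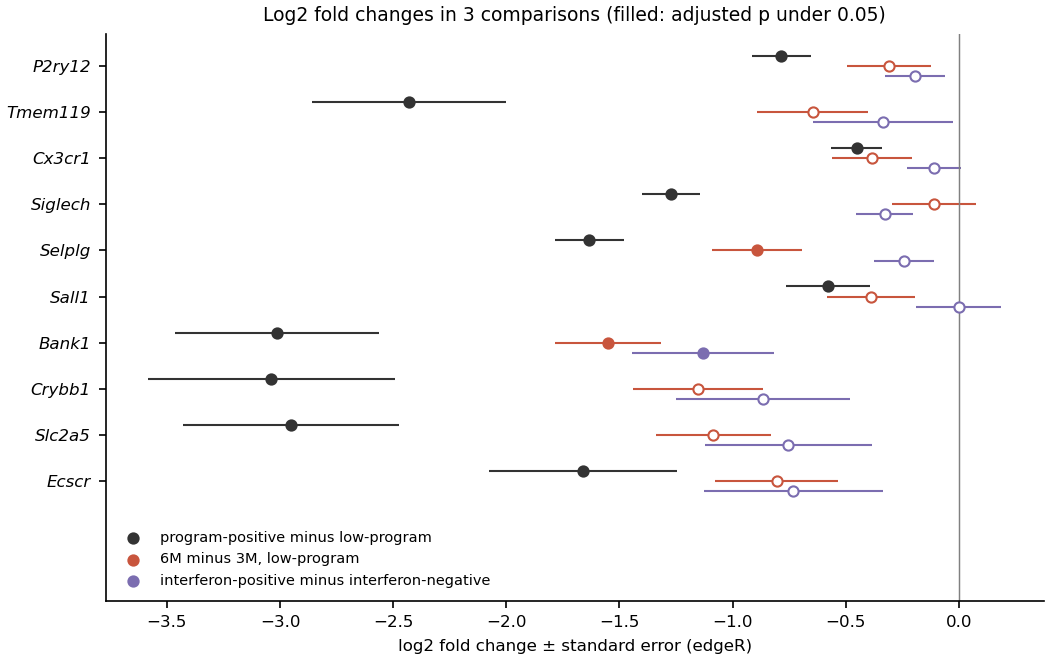
The x axis gives the log2 fold change and the y axis the 10 genes, with bars for the standard error, in 3 comparisons, and filled points passed an edgeR adjusted p of 0.05. All 10 are filled for the program comparison, Bank1 and Selplg for age in low-program microglia and Bank1 alone for the interferon comparison.

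Levels in other cell types give the background to these values. For every one of the 10, low-program microglia were the highest of the large classes in the mean, and program-positive microglia came next. Siglech was at 899 ± 87.7 CPM in low-program microglia and at 381 ± 39.8 CPM in program-positive microglia (mean ± SD, n = 4 mice). In oligodendrocytes, oligodendrocyte precursors (OPCs), excitatory neurons and inhibitory neurons its mean was 1.39, 1.76, 0.40 and 0.58 CPM, and in astrocytes 0 UMIs were read. Selplg was likewise low, with means of 0.55 to 2.95 CPM in these 5 types. Tmem119, Bank1, Crybb1, Slc2a5 and Ecscr stayed under 2.3 CPM in the mean in each of them, with 0 UMIs of Ecscr in oligodendrocytes, OPCs and astrocytes. In program-positive microglia the means of Crybb1 (10.2 CPM) and Slc2a5 (12.0 CPM) rest on 4 and 5 UMIs. Crybb1 and Bank1 were at 0 there in 3M-1 and 6M-2, and Slc2a5 and Tmem119 in 6M-2. These genes were thus not above the level of oligodendrocytes in every mouse. The oligodendrocyte means were 0.19 CPM for Crybb1, 1.12 for Bank1, 0.15 for Slc2a5 and 1.18 for Tmem119.

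P2ry12 and Cx3cr1 were read in all types. P2ry12 was at 70.1 ± 17.2 CPM in excitatory neurons, 70.4 ± 15.8 in inhibitory neurons, 86.3 ± 30.1 in OPCs, 61.5 ± 25.2 in astrocytes and 10.6 ± 3.23 in oligodendrocytes (mean ± SD, n = 4 mice). These values overlap except for oligodendrocytes, which were lower than all others in every mouse. Med12l, in which P2ry12 lies, was at 153, 145, 165, 125 and 22.1 CPM in the same 5 types, and was likewise highest in OPCs and lowest in oligodendrocytes in the mean. Its part in the P2ry12 values was not tested. Cx3cr1 was at 15.0 to 19.0 CPM in the mean in all 5 types, and these do not differ beyond their spread. Wdr48, which overlaps the Cx3cr1 gene model, was at 28.5, 31.2, 25.4, 28.1 and 29.5 CPM in the same 5 types, in the order given for P2ry12. Its part in the Cx3cr1 values was not tested. Sall1 was at 18.6 ± 3.59 CPM in oligodendrocytes, 17.4 ± 6.52 in astrocytes, 6.05 ± 3.29 in OPCs, 4.73 ± 0.59 in inhibitory neurons and 0.21 ± 0.12 in excitatory neurons, an order in which oligodendrocytes overlap with astrocytes, and OPCs with astrocytes and with inhibitory neurons.

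**Figure D5:**
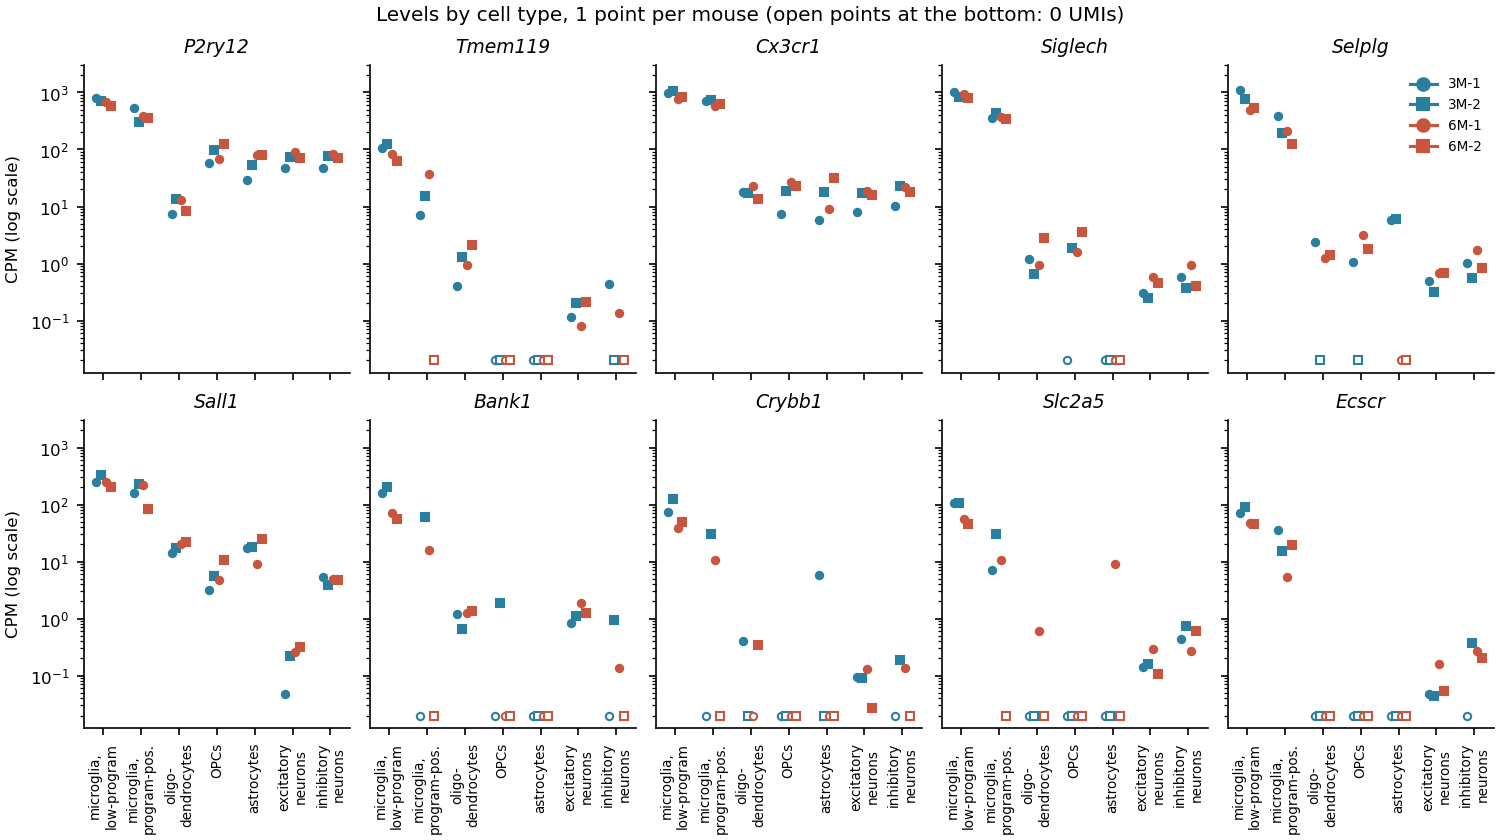
Each panel gives 1 gene, the y axis its level in CPM on a log scale and the x axis the cell class, with 1 point per mouse and open points at the bottom for 0 UMIs. Low-program microglia are the highest class for each gene, and P2ry12 and Cx3cr1 were read in all classes. Reads of genes that overlap them cannot be told apart with certainty.

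Border macrophages, with 34 nuclei over the 4 libraries, were too few to split by mouse. Pooled, Bank1 was at 666 CPM there (52 UMIs, exact 95% interval 497 to 873 CPM), above the 123 ± 71.8 CPM of low-program microglia. Tmem119 and Slc2a5 had 0 UMIs of 78077, which allows up to 38.4 CPM each when 3 counts are taken as the limit of a count of 0. P2ry12 and Cx3cr1 were at 231 CPM each (interval 137 to 364), and Siglech at 179 CPM (98.0 to 301). Macrophage nuclei could not be kept clear of microglial RNA by the gate, which allows them microglial markers. Endothelial nuclei, in which Ecscr was first described, numbered 14 and gave 0 UMIs of Ecscr, which by the same limit allows up to 123 CPM.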

How the data were processed

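Nuclei of cerebral cortex were sorted as DAPI-positive singlets and sequenced with the Chromium 3′ chemistry (10x Genomics, v3.1). The deposited values are raw UMI counts per gene and nucleus, made by the authors with Cell Ranger 7.0.0 (per the file headers) on mm10. Seurat is also named in the submitters' processing notes. Whether intronic reads and strand were used in counting is not given in the sources used here. Following the study, nuclei with more than 7000 genes or more than 1% mitochondrial UMIs were left out, which kept 30515 nuclei. Doublets were kept in the main analysis. Scrublet (scanpy 1.11.5) called 2042, of which 14 were among microglia.

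The 10 genes and all lists were chosen with earlier results of these data known, and the marker minimums were set after the marker distributions were seen. The named genes were the 10, and from each list up to 4 per direction with the smallest p. For each mouse the UMIs of a class were added up and tested with edgeR 4.0.16 in R 4.3.3 (TMM scaling, filterByExpr, quasi-likelihood F-test, Benjamini-Hochberg adjustment over all genes tested, threshold 0.05). The standard error is the size of the log2 fold change divided by the root of F. Mice were a block where classes were compared. DESeq2 1.42.0 was an alternative. The replicate number at each age was used as the batch number, and that is where the pairing comes from. Sample titles do not say that same-numbered mice shared a batch, so the pairing across ages is an assumption. Same-numbered mice deviated together only weakly (correlation over genes 0.044 in low-program and 0.012 in program-positive microglia). Chi-square tests found no pair of libraries alike within sampling noise. Marker gating kept 866 nuclei with markers of both microglia and another type out of the microglia, 83, 172, 354 and 257 by mouse. Those that passed only the border macrophage or the T cell gate were placed in that class. Clustering gave 2108 microglia, 2031 of them shared with the gate. Some genes of the lists are counted but not reported by name here. Intervals cover counting error only.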

Additional observations from a re-analysis of the deposited data

Results flagged for a closer look

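In the interferon comparison, the difference between interferon-positive and interferon-negative microglia of the mouse 3M-1 lay apart from the other 3 mice for Bank1. The log2 ratio of Bank1 was -2.313 there and between -0.7872 and -0.656 in the others. It rests on 2 UMIs of Bank1 in the interferon-positive microglia of 3M-1, and on 8, 8 and 4 in those of the others. For Slc2a5 the same held for the mouse 6M-2, with a log2 ratio of -3.503 against -0.4472 to -0.3306 in the others, and with 0 UMIs of Slc2a5 in its interferon-positive microglia. Each of these values stood farther from its group than Dixon's 95% limit for 4 samples. In all, 22 groups of 4 were tested and 2 stood out, where chance gives about 1 in 20.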

How the results depend on the processing

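In the program comparison 723 genes passed, against 373 in DESeq2, 472 without the replicate block and 441 (without 3M-1) to 614 with 1 mouse left out. Of the members, 10 passed, against 7 in DESeq2 and 8 without the replicate block. Members that passed were 6 of the 7 tested at 1500 to 4000 UMIs, and 9 with any 1 mouse left out. They were also 9 for 2 or more program genes against 0 and with the split after thinning. For age in low-program microglia 44 genes passed, against 0 without a filter (937 at an unadjusted p under 0.05, and 11 in DESeq2), 10 at 1500 to 4000 UMIs, 13 with 0 program genes after thinning, 23 in all microglia, 13 with 0 interferon genes, 131 with the replicate block and 22 to 364 with 1 mouse left out (179 without 3M-1, 364 without 3M-2 and 22 without 6M-1). There, 2 members passed, against 0 without a filter, 4 with the replicate block, 1 to 4 with 1 mouse left out, and 1 each in DESeq2, in microglia from clusters, at 1500 to 4000 UMIs, with only 0 program genes, with 0 after thinning, in all microglia and with 0 interferon genes. For age in program-positive microglia 1 gene passed, against 3 with RLE size factors, library totals, doublets left out or 2 or more program genes, 19 without a filter, 7 in microglia from clusters, 2 at 1500 to 4000 UMIs and 4 to 21 with 1 mouse left out (21, 4, 20 and 10 without each mouse in turn). For the interaction 0 genes passed, against 10 without a filter, 4 for 2 or more program genes against 0, 1 with the split after thinning, 3 without Ccl3 and Ccl4 and 0 to 17 with 1 mouse left out (17, 0, 6 and 10 in turn). For interferon 138 genes passed, against 85 in DESeq2, 91 without the replicate block and 86 (without 3M-1) to 118 with 1 mouse left out, and 1 member passed, against 2 without a filter, 0 in DESeq2, 0 without the block and 0 with any mouse left out. The difference in program share ran from -1.05 to 2.34 points with 1 mouse left out. Directions turned for Siglech by age in program-positive microglia, to 0.11 in microglia from clusters and 0.0031 with 2 or more program genes. With 1 mouse left out, log2 fold changes by age ran from -0.46 to 0.32 for P2ry12, -1.07 to 0.33 for Sall1 and -0.247 to 0.0479 for Siglech in program-positive microglia, and from -0.254 to 0.0493 for Siglech in low-program microglia. Without the replicate block the calls of Cx3cr1 (edgeR adjusted p = 0.0751) and Sall1 (0.166) in the program comparison and of Bank1 (0.395) in the interferon comparison were lost. With the block no member passed for age in program-positive microglia or in the interaction. In the program comparison the log2 fold change of Tmem119 was -1.45 and that of Slc2a5 -1.83 for 2 or more program genes against 0. Without a filter the median of all genes moved to -0.27 in the program and -0.24 in the interferon comparison, 0.18 for age in program-positive microglia and 0.12 in the interaction. Where the age fits left out a mouse, the lone mouse was assumed to vary like the other age. The cause of these changes was not tested.

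Few UMIs, few nuclei and few mice limit what can be said of Tmem119, Bank1, Crybb1, Slc2a5 and Ecscr in program-positive microglia, where each had 10 UMIs or fewer.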

Other observations

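The 20 markers that chose microglia were themselves not level between the classes. In program-positive microglia 10 were lower and 3 higher than in low-program microglia, with a median log2 fold change of -0.36. Of all genes tested, 4.97% were lower. Arhgap45 was lower by a log2 fold change of -0.89 ± 0.11, Csf1r, the receptor for the growth factors CSF1 and IL-34, of -0.69 ± 0.12, the complement gene C1qc of -0.71 ± 0.14 and the lipid phosphatase gene Inpp5d of -0.49 ± 0.10 (± SE, all past an edgeR adjusted p of 0.05). The markers that were higher were Apbb1ip at 0.67 ± 0.10, Ptprc, which encodes CD45, at 0.64 ± 0.11 and Dock2 at 0.38 ± 0.11, where 6.22% of the genes tested were higher. The call for Dock2 was lost in 9 of 15 alternatives, with an edgeR adjusted p of up to 0.257, and among them without 3M-2 (0.0910), without 6M-1 (0.0862) or without 6M-2 (0.102). In the interferon comparison Ctss, a lysosomal protease, was higher by 0.51 ± 0.13 and Arhgap45 was lower by -0.40 ± 0.11, and the DAM gene Axl was higher by 2.26 ± 0.34, where 2.21% of the genes tested were higher. The call for Ctss was lost in 7 of 13 alternatives, among them without 3M-1 (edgeR adjusted p = 0.0895), 3M-2 (0.103) and 6M-1 (0.0920), and that for Arhgap45 in 6, among them without 3M-1 (0.101), 3M-2 (0.163) and 6M-2 (0.205). The call for Axl held in all 13. In interferon-negative microglia Axl was at 14.75, 12.15, 41.4 and 54.4 CPM by mouse. It reached the filter on low counts only through the interferon-positive class, so its fold change is a description.

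Gm31243, the antisense transcript within Bank1, read 154, 164, 48.6 and 36.9 CPM in low-program microglia by mouse, and 36.1, 45.4, 16.0 and 0 CPM in program-positive microglia. In oligodendrocytes, OPCs, astrocytes and neurons it was at 0 to 2.61 CPM in the mean.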
